A study of Mus musculus with 96 samples.

Results

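The 16 RNA sequencing libraries of mouse epidermis taken at circadian time 0 (CT0), the first of 6 sampled times, were compared between 4 genotypes. They were chosen by their labelled time alone, out of 96 libraries in the series, and comprise 4 libraries each of WT, RERE, EpiRE and BRE mice. The study asked how a clock restored in brain, in skin epidermis or in both shapes the daily transcriptome of the epidermis. All animals were C57BL/6 females 8 weeks old, fed chow freely, and had spent 156 to 176 h in constant darkness before the back skin was taken and the epidermis was lifted off with dispase. WT mice carried Arntl wt/wt, K14Cre wt/tg and Syt10-Cre tg/wt. RERE mice carried Arntl stopFL/stopFL, K14Cre tg/wt and Syt10-Cre tg/wt. EpiRE mice carried Arntl stopFL/stopFL and K14Cre tg/wt with no Syt10-Cre transgene. BRE mice carried Arntl stopFL/stopFL and Syt10-Cre tg/wt with no K14Cre transgene. The stopFL allele is silent until Cre removes a stop, the keratin 14 driver K14Cre acts in keratinocytes, and Syt10-Cre acts in the brain clock, the suprachiasmatic nucleus. Controls without any Cre driver and mice with the stopped allele alone were not analysed here. Because K14Cre reaches keratinocytes, other cells of EpiRE skin keep the stopped allele, and so do all cells of BRE skin.

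The circadian clock is a loop of transcription. BMAL1, encoded by Arntl, pairs with CLOCK or NPAS2 and activates the Per and Cry genes, the genes Nr1d1 and Nr1d2 of the REV-ERB repressors, and the output factors Dbp, Tef and Hlf. PER and CRY proteins then block the activator, while the REV-ERB proteins repress Arntl, Npas2 and Cry1. In epidermis the clock is known to set daily times for DNA replication, differentiation and metabolism in keratinocytes.

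Recovered read totals of the 16 libraries ran from 12.6 M to 19.9 M. WT libraries (14.1 to 15.4 M) were shallower than those of RERE (16.9 to 19.9 M) and EpiRE (17.3 to 18.5 M) without overlap, and BRE libraries (12.6 to 18.6 M) spanned both. Each library had reads on 15516 to 16000 genes. The keratins Krt14 of the basal layer (11.34 to 12.17 log2 RPKM) and Krt10 of the layers above (12.60 to 13.51) were abundant in all 16 libraries, while the summed level of 5 endothelial genes was at most 0.567 RPKM and that of 5 adipocyte genes at most 0.792 RPKM. The labels call the 4 libraries of a group biological replicates, and p-values here measure the spread between them. RPKM is reads per kilobase of gene, scaled to library size, and all levels and differences below are on the log2 RPKM scale unless stated.

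Among the EpiRE libraries, 2 stood apart. Replicate 3 had clock gene levels nearer those of WT than the other EpiRE libraries did. Its mean over the 11 tested clock repressors and output factors was 3.37, against 4.58, 4.29 and 4.25 in replicates 1, 2 and 4. WT had 3.04 to 3.46 and RERE 2.79 to 3.26, so this library lay within WT and above RERE. Replicate 1 was the farthest from its own group over all genes tested, with a root mean square distance of 0.486 from the mean of the other EpiRE libraries, against 0.250 to 0.365 for the other 15 libraries. The median SD of the 17 tested clock genes at CT0 was 0.57 in EpiRE, 0.31 in RERE, 0.24 in WT and 0.21 in BRE, beside 0.22, 0.20, 0.16 and 0.13 over all genes tested. Labels and table headers name the same CT. In a second set of deposited tables, not used here, the codes of the columns run in order for WT and RERE and out of order for EpiRE and BRE, and whether this bears on the CT of those libraries was not tested. Counts that involve EpiRE, and some of the values, are also given without replicate 3.

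With the spread of the 16 CT0 libraries, few genes were called by genotype. Every gene then called between a pair of genotypes was called in a pair that holds BRE. Over the 16 libraries 10996 genes averaged 0 log2 RPKM or more, and 51 of these (0.464%) differed between the 4 genotypes by limma's moderated F test at a Benjamini-Hochberg adjusted p under 0.05. Among those with the smallest p were Nr1d1, Cry1, Arsi, Nr1d2, Ngfr, Per2, Socs2, Arntl, Cry2, Map1lc3b, Ccnd2, Cyp2b10, Gsdmc and Agpat3, of which 6 belong to the clock lists. BRE differed from WT in 35 genes (0.318%), 15 higher (0.136%) and 20 lower (0.182%), from RERE in 57 (0.518%) and from EpiRE in 96 (0.873%). No gene (0%) passed between RERE and WT, where 279 had an unadjusted p under 0.05 (254 by limma-voom on recovered reads, which also called 0). No gene (0%) passed between EpiRE and WT, where 455 had an unadjusted p under 0.05 (447 by limma-voom, which also called 0). For RERE and for EpiRE against WT, these unadjusted counts lie below the 5% of tested genes that chance alone gives on average. RERE and EpiRE differed in 3 genes (0.0273%). The pairs called 130 genes in all, each of them in a pair with BRE, and 17 were called in all 3 such pairs. Dbp passed the F test (adjusted p = 0.0499) without passing in any pair, with means of 3.58 in EpiRE, 2.29 in BRE, 1.39 in WT and 0.81 in RERE. When the spread was taken from all 96 libraries instead, the F test called 557 genes, RERE against EpiRE 254 and EpiRE against WT 5.

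**Figure D1:**
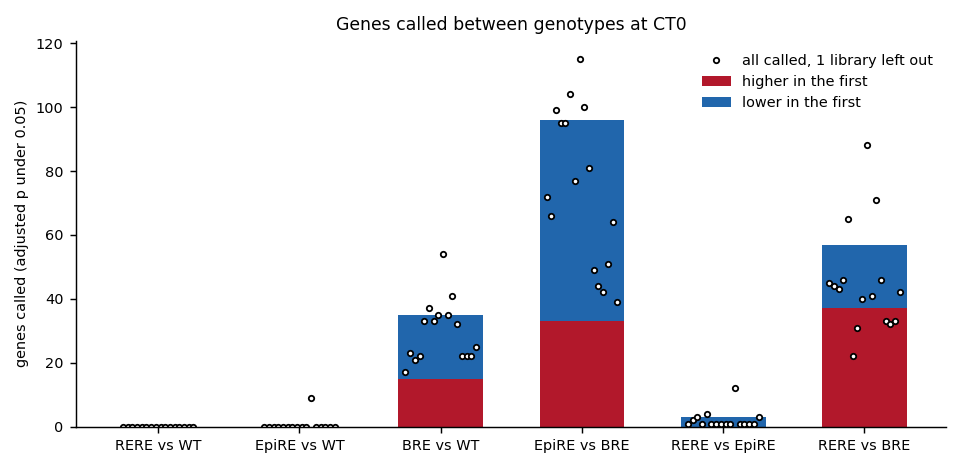
Number of genes called between each pair of genotypes at CT0, as bars of genes higher (red) and lower (blue) in the first-named genotype. Open circles give the total called when 1 of the 16 libraries was left out; the 3 pairs with BRE hold 35, 96 and 57 genes, and EpiRE against WT went from 0 to 9 without 1 library.

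Counts moved with single libraries and with the estimate of spread. The balance of 15 higher and 20 lower genes in BRE against WT turned to 111 and 82 with the spread of all 96 libraries and to 41 and 31 when these 2 genotypes were fitted alone. The 35 genes of BRE against WT became 17, 23, 21 and 22 without WT replicates 1, 2, 3 and 4, 22 without BRE replicate 1, 2 or 3, and 54 without EpiRE replicate 1, which enters through the shared spread. The 51 genes of the F test became 26, 30 and 30 without BRE replicates 1, 3 and 4, and 69 (0.628%) without EpiRE replicate 3.

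The targeted gene, Arntl (ENSMUSG00000055116; chromosome 7, 113207465 to 113314126, mm10), was lower in BRE than in the other genotypes at CT0. Its level was 4.76, 4.60, 4.97 and 4.65 in the WT libraries, 4.85, 4.76, 4.78 and 4.67 in RERE, 4.54, 4.50, 4.90 and 4.45 in EpiRE, and 4.07, 4.02, 3.85 and 3.75 in BRE. All 4 BRE libraries lay below the other 12, which overlapped one another. BRE was lower than WT by a log2 difference of -0.83 ± 0.11 (SE, adjusted p = 0.00325 by limma), and an exact two-sided permutation test over the 4 against 4 libraries gave p = 0.0286, the smallest that 70 splits allow (0.0572 adjusted over 6 pairs). The difference of EpiRE from WT was -0.15 (exact permutation p = 0.286) and that of RERE from WT 0.02 (exact permutation p = 0.829). Reads over the whole gene do not tell stopped from complete transcripts, so this level does not check the allele. At the other 5 times the mean difference of BRE from WT was 0.17, in the opposite direction. Single times ran from -0.79 to 1.06, so BRE was about as far below WT at another time as at CT0.

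Among the partners and activators of the loop, the BRE and most EpiRE libraries lay on opposite sides of WT for Npas2. Npas2, the BMAL1 partner, was 4.37 to 4.52 in BRE, 3.72 to 3.93 in WT and 3.77 to 4.01 in RERE, with BRE above both, but BRE against WT (0.63 ± 0.19) did not pass with the spread of all 16 libraries (adjusted p = 0.247). In EpiRE, Npas2 was 2.95, 2.97 and 3.12 in replicates 1, 2 and 4 and 4.17 in replicate 3, so that these 3 were the lowest of the 16 libraries and the fourth ranked above WT. EpiRE was below BRE for Npas2 by -1.14 ± 0.19 (adjusted p = 0.00988), and by -1.43 ± 0.09 without EpiRE replicate 3. Clock, Arntl2, Rora and the E4-binding repressor Nfil3, listed with them, passed in no pair. Of the 6 genes of this list, 0 rose and 1, Arntl, fell in BRE against WT, beside 0.136% and 0.182% over all genes tested.

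The repressors split into those far below and those far above WT in BRE. Nr1d1 (chromosome 11, 98767932 to 98775333), encoding REV-ERBα, was 1.90, 1.80, 1.93 and 2.45 in BRE against 4.78, 5.09, 4.59 and 5.28 in WT. RERE had 4.66 to 5.09 and EpiRE 4.95 to 6.07, again with BRE alone, and BRE fell below WT by a log2 difference of -2.91 ± 0.21 (adjusted p = 1.08e-06). Its paralog Nr1d2 (chromosome 14, 18204054 to 18239127), REV-ERBβ, was 1.19 to 1.84 in BRE and 3.21 to 3.47 in WT, a difference of -1.76 ± 0.25 (adjusted p = 0.00339). Cry1 (chromosome 10, 85131700 to 85185064), a partner of PER proteins, was higher in BRE, at 5.25, 5.35, 5.08 and 5.19, than in WT, at 3.53, 3.32, 4.13 and 3.12. The BRE minus WT difference for Cry1 was 1.69 ± 0.17 (3.23-fold, adjusted p = 7.2e-05). Per2, which closes the loop with CRY, averaged below the minimum level of 0 in WT, at -0.25, -1.56, 0.57 and -0.90, and in RERE, at -1.89 to -1.0. It stood at 2.82, 2.29, 2.28 and 2.25 in BRE, all above every WT and RERE library, and BRE exceeded WT by 2.95 ± 0.46 (adjusted p = 0.00781). Cry2 followed with 3.61 to 3.95 in BRE and 3.03 to 3.34 in WT (0.65 ± 0.11, adjusted p = 0.0192). Per3 and Per1 did not pass: Per3 was 1.11 to 1.58 in BRE and 1.09 to 1.54 in WT, and Per1 was 3.64 to 4.18 and 4.12 to 5.62.

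**Figure D2:**
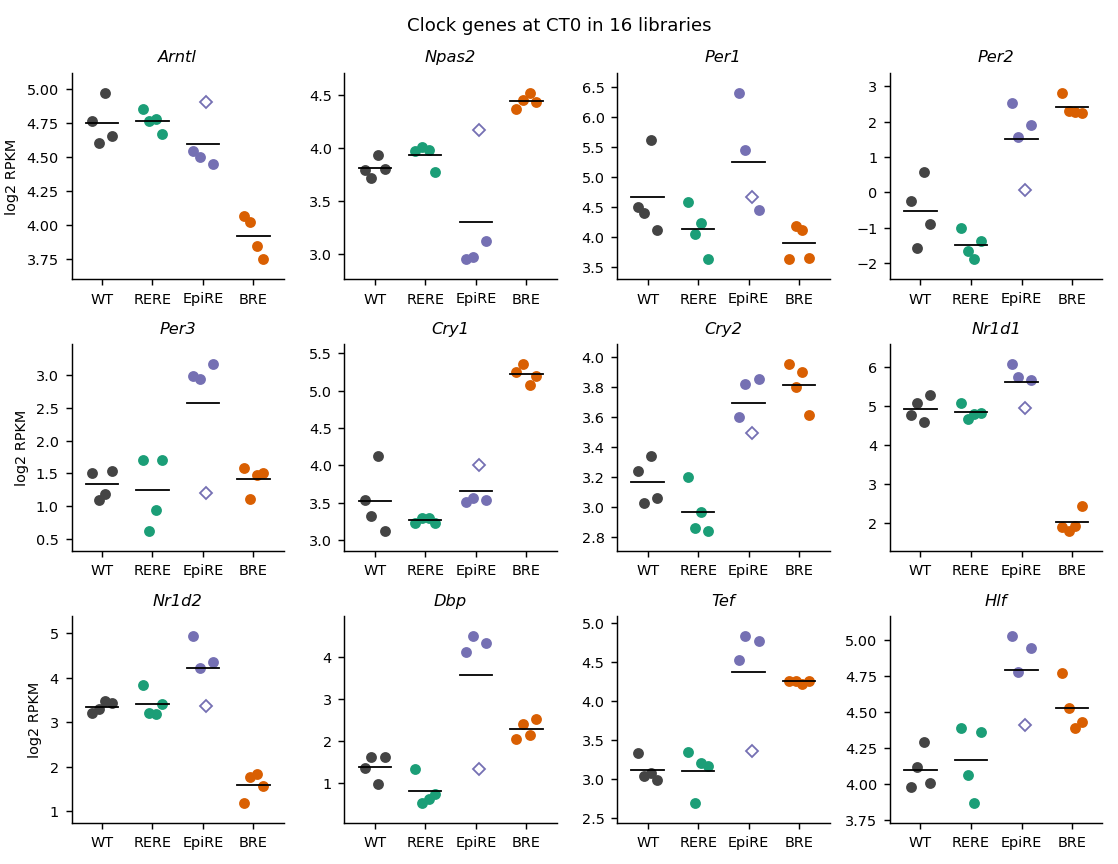
Level of 12 clock genes at CT0 (log2 RPKM, each panel with its own axis) in every library of WT, RERE, EpiRE and BRE, with the group mean as a line and EpiRE replicate 3 as an open diamond. BRE libraries lie apart for Arntl, Npas2, Cry1, Nr1d1 and Nr1d2, and EpiRE replicate 3 sits with WT for Dbp, Tef and Per3.

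The PAR bZIP output factors, which pass clock time on to metabolic genes, lay above WT in BRE by differences that did not pass. Tef (chromosome 15, 81802421 to 81826863) was 4.26, 4.26, 4.21 and 4.26 in BRE and 2.98 to 3.33 in WT, a difference of 1.14 ± 0.24 (adjusted p = 0.0585). Dbp was 2.06, 2.41, 2.16 and 2.53 in BRE and 1.35, 1.62, 0.99 and 1.62 in WT (0.90 ± 0.49, adjusted p = 0.593). Neither gene's BRE and WT libraries overlapped, yet the wide spread of EpiRE enters the error of both. Over the list of 11 tested repressors and output factors, 3 rose and 2 fell in BRE against WT, beside 0.136% and 0.182% over all genes tested. The list had a median difference of 0.43, where the median over all genes tested was 0.00. Of the remaining 2 members of that list, Ciart (mean -0.32) and Bhlhe41 (mean -3.47) lay below the minimum of 0, while Per2 (mean 0.48) lay just above it. Per2 passed that minimum only through BRE (2.41) and EpiRE (1.52), since WT (-0.54) and RERE (-1.48) lay below it. Its calls and its place in this count and median follow from that entry. With no minimum level, Per2 still passed for BRE against WT and RERE against BRE.

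Promoters of Cry1 and Tef are shown because both genes were higher in every BRE than in every WT library at CT0, although BRE epidermis keeps the Arntl stop, and both hold the E-box CACGTG, the element that BMAL1 with its partner binds. The 250 bases before each RefSeq start are given 5′ to 3′ on the gene's strand (build GRCm38.p6), with the E-box in capitals. The Cry1 sequence is chr10:85185055-85185304 on the minus strand and has its E-box 60 bases before the start, and the Tef sequence is chr15:81811164-81811413 on the plus strand and has it 138 bases before the start. Tef has 2 RefSeq starts, both with the motif, and the later one is shown, whose window lies within an intron of the longer transcript.
Cry1: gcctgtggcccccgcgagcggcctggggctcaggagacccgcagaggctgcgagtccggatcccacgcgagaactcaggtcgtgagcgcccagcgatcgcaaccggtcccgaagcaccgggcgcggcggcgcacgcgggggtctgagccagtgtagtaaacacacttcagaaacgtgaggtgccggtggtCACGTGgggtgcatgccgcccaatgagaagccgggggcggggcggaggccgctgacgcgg
Tef: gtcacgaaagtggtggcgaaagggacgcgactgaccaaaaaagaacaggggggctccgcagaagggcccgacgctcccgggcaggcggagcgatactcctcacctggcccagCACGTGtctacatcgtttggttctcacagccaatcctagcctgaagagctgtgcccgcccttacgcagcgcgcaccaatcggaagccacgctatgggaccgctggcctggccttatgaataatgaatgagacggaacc
The same search over both strands (the motif reads alike on each) found CACGTG in 10.4% of the 8630 tested genes with a promoter in the table. It was in 3 of the 27 (11.1%) such genes called between BRE and WT and in 5 of 17 (29.4%) genes of the 2 clock lists, namely Cry1, Tef, Per1, Ciart and Bhlhe41. Ciart and Bhlhe41 were not among the tested genes, so the 29.4% is not drawn from the same set as the 10.4%. The windows of Nr1d1, Nr1d2, Dbp, Npas2, Arntl, Per3 and Cry2 hold no such letters, and Per2 was not matched.

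EpiRE mice, whose clock was restored in epidermis without the brain, differed from WT in no gene that passed at CT0, yet 3 of their 4 libraries had clock output levels outside the WT range. Dbp was 4.13, 4.51 and 4.35 in EpiRE replicates 1, 2 and 4 and 1.34 in replicate 3, where WT had 0.99 to 1.62 and RERE 0.53 to 1.34. Tef was 4.52, 4.83 and 4.77 in the same libraries and 3.35 in replicate 3, beside 2.98 to 3.33 in WT. Per3 was 2.98, 2.94 and 3.16, and 1.20 in replicate 3, beside 1.09 to 1.54 in WT. In all 3 genes replicate 3 lay within or just above the WT range and the other libraries lay far above it. With all 4 libraries the EpiRE minus WT differences were 2.19 ± 0.49 for Dbp, 1.26 ± 0.24 for Tef and 1.24 ± 0.35 for Per3, and none passed (adjusted p = 0.609, 0.609 and 0.847).

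Without EpiRE replicate 3, 9 genes (0.0818%) passed against WT. They were Dbp (2.94 ± 0.20, adjusted p = 2.67e-06), Tef (1.60 ± 0.13), Per3 (1.69 ± 0.24), Per2 (2.54 ± 0.39), Nr1d2 (1.15 ± 0.20), Hlf (0.82 ± 0.13) and the cyclin gene Ccnd2 (0.64 ± 0.11), all higher, and Npas2 (-0.80 ± 0.09) and Ttc9 (-0.73 ± 0.12), both lower. Ttc9 was named after its values were seen. Because that library is set aside here for its clock gene levels, these values describe how much the comparison rests on it, and they give no separate support. Leaving out any of the other 15 libraries gave 0 genes.

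RERE mice, with both Cre drivers on the stopped allele, had no gene that passed against WT, and the RERE and WT ranges overlapped for each clock gene named above. The differences from WT were 0.02 for Arntl, -0.09 for Nr1d1, -0.26 for Cry1, -0.59 for Dbp and -0.94 for Per2 (adjusted p = 1 for each). The 95% interval of the difference was -0.22 to 0.25 for Arntl and -1.92 to 0.03 for Per2, so the data bound a change in Arntl tightly and one in Per2 loosely. RERE and EpiRE, which differ by the brain driver, were separated by Per2 (-3.00 ± 0.46, adjusted p = 0.0369), Ccnd2 (-0.94 ± 0.12, adjusted p = 0.005) and Cry2 (-0.72 ± 0.11, adjusted p = 0.0369), all lower in RERE. Ccnd2, a cyclin that promotes entry into the cycle, was 5.66, 5.66, 5.78 and 5.74 in RERE, 5.89 to 6.22 in WT and 6.62, 6.69, 6.36 and 6.92 in EpiRE, so that the 3 genotypes did not overlap. With the replicate number as a block, Ccnd2 alone passed (adjusted p = 0.0385), with Per2 at 0.0559 and Cry2 at 0.0685. Per2 and Cry2 also missed the threshold with no minimum level. Fitted on these 2 genotypes alone the comparison gave 0 genes, and without EpiRE replicate 3 it gave 12 (0.109%), among them Per2 (-3.48 ± 0.39), Ccnd2 (-1.03 ± 0.11), Cry2 (-0.79 ± 0.12), Dbp (-3.53 ± 0.20) and Npas2 (0.91 ± 0.09).

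Outside the clock lists, Socs2, Cish, Slc2a1, Cdc25b and Ngfr were among the genes lower in BRE than in WT. Socs2 (chromosome 10, 95385362 to 95417180), a suppressor of cytokine signalling, was -2.96, -1.98, -0.96 and -2.42 in BRE and 0.75, 0.50, 1.09 and 1.24 in WT. RERE had 0.81 to 2.03 and EpiRE -0.04 to 1.56, all above BRE, and the BRE minus WT difference was -2.97 ± 0.41 (adjusted p = 0.00339). Cish, a relative of Socs2 in the same feedback, was 4.32 to 5.15 in BRE and 5.32 to 5.99 in WT (-0.95 ± 0.18, adjusted p = 0.0311). Slc2a1 (chromosome 4, 119108711 to 119137983), which encodes the glucose transporter GLUT1, was 5.04, 5.10, 4.89 and 5.05 in BRE against 5.57, 5.77, 5.89 and 5.78 in WT. Slc2a1 lay below every library of the other genotypes (-0.73 ± 0.11, adjusted p = 0.00595). Cdc25b, a phosphatase that activates mitotic CDK1, was 3.19, 2.95, 3.37 and 3.94 in BRE and 4.36 to 4.78 in WT (-1.20 ± 0.19, adjusted p = 0.00781). Ngfr, the p75 neurotrophin receptor, was 1.96 to 2.59 in BRE, 3.05 to 3.40 in WT and 3.51 to 4.16 in EpiRE (BRE minus WT -0.95 ± 0.15, adjusted p = 0.00995).

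The remaining named genes lower in BRE were Gadl1 (-1.79 ± 0.31), the peptide hormone gene Pyy (-1.66 ± 0.32), the LIM protein gene Csrp2 (-1.39 ± 0.22), the gelatinase Mmp2 (-0.97 ± 0.18) and Praf2 (-0.84 ± 0.14). Gsdmc, a gasdermin, was -1.44 to -0.80 in BRE and 0.71 to 2.14 in WT (-2.60 ± 0.37, adjusted p = 0.00339), and Arsi, a sulfatase, differed by -1.32 ± 0.19. Map1lc3b, the autophagosome protein LC3B, differed little in size but without overlap, at 6.31 to 6.46 in BRE and 6.81 to 6.98 in WT (-0.51 ± 0.09, adjusted p = 0.0141).

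Higher in BRE than in WT were Abhd12b (1.33 ± 0.24), Rflnb (0.81 ± 0.16), the adhesion molecule Flrt2 (0.69 ± 0.13), the Reelin adaptor Dab1 (0.64 ± 0.11), the matrix protein Sparc (0.59 ± 0.12), the protease inhibitor Serpinb7 (0.56 ± 0.11) and the YAP-binding Amotl2 (0.53 ± 0.11). Dab1 stood at 4.00, 4.17, 4.10 and 3.71 in BRE and 3.26 to 3.53 in WT, and the 4 BRE libraries lay above the other 12. Sparc stood at 4.28, 3.91, 4.53 and 4.28 in BRE and 3.58 to 3.72 in WT, while 1 RERE library reached 4.03 and overlapped BRE.

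Of the 26 named genes called between BRE and WT, 11 passed in each alternative run for them and with each library left out: Nr1d1, Nr1d2, Cry1, Per2, Arntl, Socs2, Arsi, Gsdmc, Csrp2, Cdc25b and Slc2a1. Of these, Per2, Socs2, Gsdmc and Arsi lay below the stricter minimum of 2 and were not tested under it. Socs2 and Gsdmc passed the minimum of 0 through the other genotypes, with BRE means of -2.08 and -1.16. The other 15 each missed the threshold in at least 1 of them, with Amotl2 (15 of them) and Sparc (14) missing most often.

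**Figure D3:**
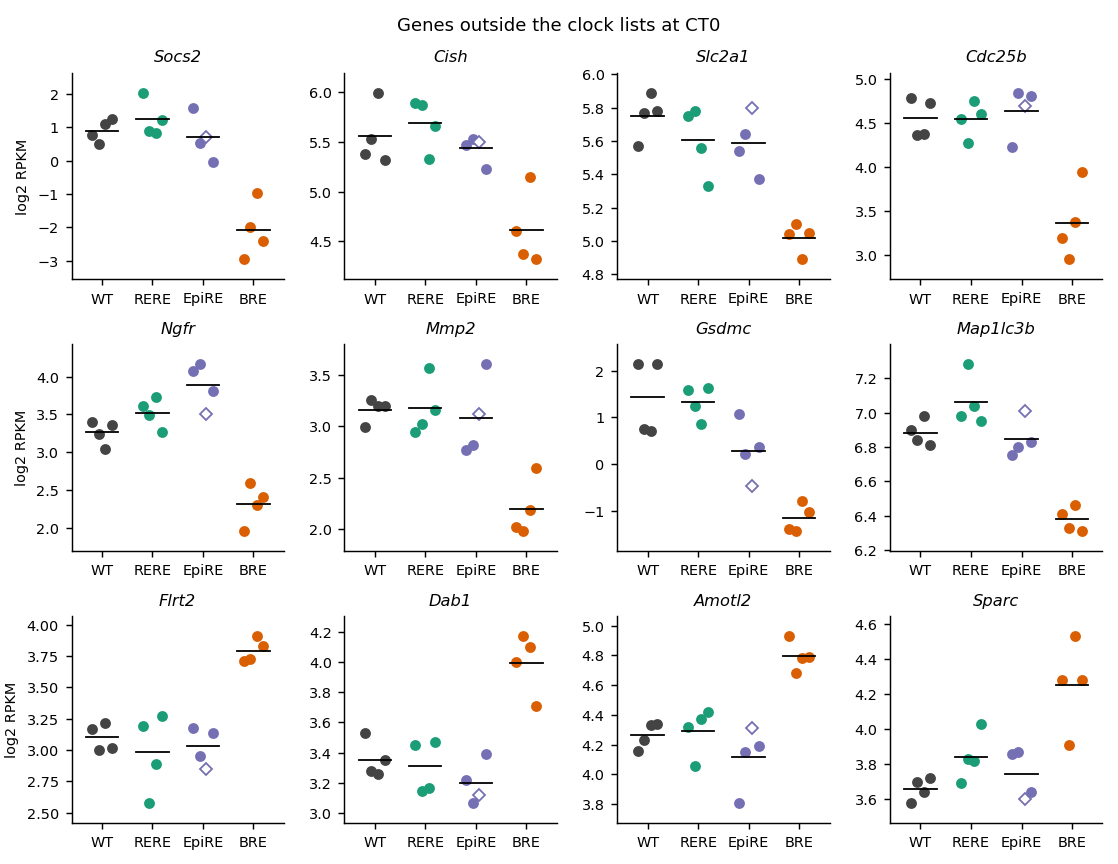
Level of 12 genes outside the clock lists at CT0 (log2 RPKM) in every library, with the group mean as a line and EpiRE replicate 3 as an open diamond. The first 8 are lower and the last 4 higher in BRE than in WT, and BRE does not overlap WT in any of them.

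EpiRE against BRE, which exchanges an epidermal clock for a brain clock, called 33 higher (0.3%) and 63 lower (0.573%) genes in EpiRE. Among the higher ones were Nr1d1 at 3.59 ± 0.21 (adjusted p = 4.56e-08), Socs2 at 2.77 ± 0.41, Nr1d2 at 2.63 ± 0.25 and Arsi at 2.03 ± 0.19. Ngfr (1.57 ± 0.15), Gem (1.31 ± 0.29), Cdc25b (1.28 ± 0.19), the glutamine synthetase gene Glul (1.13 ± 0.24), Tmod4 (0.99 ± 0.19) and Il22ra2, which encodes a soluble IL-22 inhibitor (0.75 ± 0.17), were higher as well. Among the lower ones were Cry1 (-1.57 ± 0.17), the coagulation initiator F3 (-1.85 ± 0.32), Slc46a2 (-1.60 ± 0.22), the fatty acid desaturase Scd2 (-1.50 ± 0.27), Abhd12b (-1.48 ± 0.24), the acyltransferase Mboat2 (-1.30 ± 0.18) and Calcb (-1.27 ± 0.24).

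The barrier genes Flg2 and Cdsn were among those lower in EpiRE than in BRE. Flg2 (chromosome 3, 93197278 to 93221391), filaggrin-2 of the cornified layer, was 2.75, 2.27, 1.71 and 1.92 in EpiRE and 4.17, 3.53, 3.54 and 4.35 in BRE. WT (3.07 to 4.01) overlapped BRE and RERE (2.16 to 3.63) overlapped both, and EpiRE was below BRE by -1.74 ± 0.30 (adjusted p = 0.0105). Cdsn, corneodesmosin, was 4.33 to 5.67 in EpiRE and 5.53 to 6.36 in BRE, which overlapped (-1.21 ± 0.26, adjusted p = 0.0389). These were the 2 of 16 tested genes of the cornified envelope list that passed, and the list had a median of -0.59. Fdps, an enzyme of the mevalonate pathway, was 5.69, 6.39, 5.71 and 5.73 in EpiRE and 6.64 to 6.83 in BRE (-0.86 ± 0.15, adjusted p = 0.00988), the 1 gene of 19 to pass in the cholesterol synthesis list, whose median was -0.40. Glul was the 1 gene of 11 to pass in the glucocorticoid response list, whose median was 0.71, and the highest library mean of that list was in EpiRE replicate 1 (6.38, beside 4.98 to 5.24 in BRE). Over all genes tested, 0.3% were called higher and 0.573% lower in EpiRE than in BRE, and the median was -0.02. The 96 calls became 49 without EpiRE replicate 3 (0.446%), 44 without EpiRE replicate 4, and 42, 51 and 39 without BRE replicates 1, 2 and 4, while 20 of the 33 named genes passed in each alternative run for them, Flg2 and Fdps among them and Cdsn and Glul not. Socs2 and Arsi, among the 20, were not tested at the minimum of 2. Without EpiRE replicate 3 the difference was -1.58 ± 0.32 for Flg2, -0.80 ± 0.16 for Fdps, -1.02 ± 0.26 for Cdsn (adjusted p = 0.115) and 1.21 ± 0.26 for Glul (adjusted p = 0.0586). Gem and Il22ra2 missed the threshold without it too (adjusted p = 0.087 and 0.14).

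RERE against BRE, which adds the epidermal driver to the brain driver, gave 37 higher (0.336%) and 20 lower (0.182%) genes in RERE. The balance turned to 194 higher and 282 lower with the spread of all 96 libraries, and was 33 and 29 by limma-voom and 21 and 20 with these 2 genotypes alone. Clock genes were among them, with Nr1d1 at 2.83 ± 0.21, Nr1d2 at 1.82 ± 0.25 and Arntl at 0.84 ± 0.11 higher, and Per2 at -3.89 ± 0.46, Cry1 at -1.95 ± 0.17, Tef at -1.15 ± 0.24 and Cry2 at -0.85 ± 0.11 lower. Beyond them, Socs2 (3.31 ± 0.41), Gsdmc (2.50 ± 0.37), Gadl1 (1.55 ± 0.31), the noncoding RNA Lockd (1.42 ± 0.28), Ngfr (1.21 ± 0.15) and Cish (1.08 ± 0.18) were higher in RERE. Some genes of DNA replication were among those lower in RERE. Mcm2, a subunit of the replicative helicase, was 3.15, 3.09, 3.08 and 2.61 in RERE and 3.94, 4.07, 4.13 and 4.24 in BRE, with no overlap (-1.11 ± 0.21, adjusted p = 0.0213). Mcm4 of the same complex (-0.71 ± 0.14), Tonsl, which repairs replication forks (-1.22 ± 0.23), Dctd of nucleotide synthesis (-0.67 ± 0.14) and the mitotic checkpoint kinase gene Ttk (-0.69 ± 0.12) passed too. Each of these 5 lost its call in at least 1 alternative, as did Tef (13 of them, adjusted p up to 0.152), Gadl1 (12), Lockd (7) and Cish (2), and 13 of the 31 named genes kept it in each alternative run for them. The 57 calls became 22 and 31 without RERE replicates 2 and 3, 33, 32 and 33 without BRE replicates 1, 2 and 3, and 88 without EpiRE replicate 1. The 3 pairs with BRE share the BRE libraries, so their values are set side by side and are not independent.

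The 2 cell cycle lists had medians on opposite sides of 0 in BRE, with large differences between its libraries. The mean of 19 S phase genes was 3.35, 3.22, 3.52 and 3.76 in BRE, 3.25, 2.71, 2.93 and 3.26 in WT and 2.58 to 3.00 in RERE. The median S phase difference of BRE from WT was 0.45, with 0 of 19 called, and that of RERE from BRE was -0.61, with 2 of 19 lower. The mean of 21 G2 and M phase genes was 2.29, 1.57, 3.15 and 3.63 in BRE and 2.78 to 3.74 in WT, so BRE libraries spread below and within the WT range. The median G2 and M difference of BRE from WT was -0.64, with 0 of 21 called. In the glycolysis list 1 of 14 passed, Slc2a1, with a list median of -0.30. In the hypoxia list none of 11 passed (median -0.52). Its member Vegfa, a growth factor for vessels, was 2.12 to 2.70 in BRE and 3.06 to 3.66 in WT without overlap (-0.91 ± 0.20, adjusted p = 0.0685). Vegfa in RERE (2.25 to 2.97) and EpiRE (2.23 to 2.92) lay below WT as well. The hypoxia list had medians of -0.37 in RERE and -0.36 in EpiRE against WT, and the glycolysis list of -0.20 and -0.35, with none of the 14 glycolysis genes above 0 in these pairs and 0 called. None of the lists for basal keratinocytes (12 tested), suprabasal keratinocytes (12), barrier lipids (14), oxidative phosphorylation (19), p53 targets (11), nucleotide excision repair (11) or interferon response (8) held a called gene in any of the 6 pairs. Over all genes tested, 0% to 0.873% were called in a pair. Having 0 calls in lists of 8 to 21 genes is near that share and is no result about the lists.

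**Figure D4:**
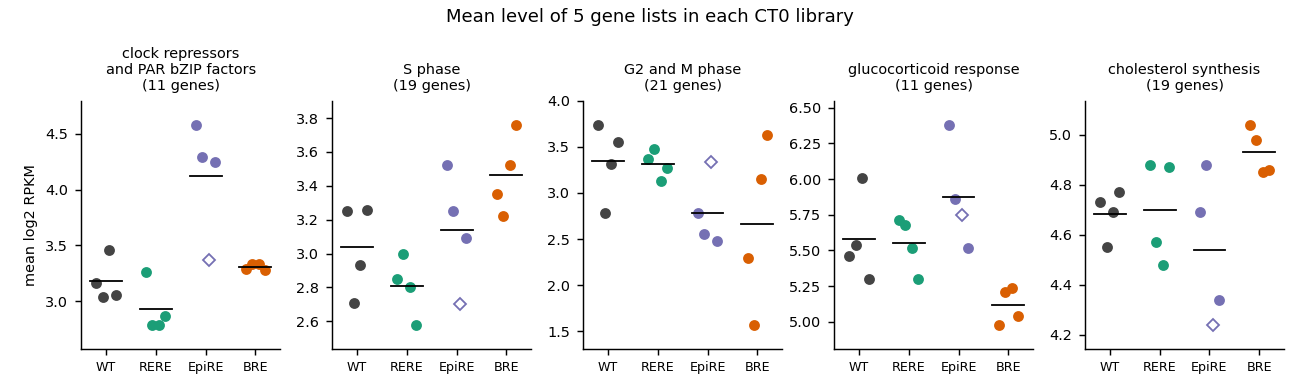
Mean log2 RPKM over the tested genes of 5 lists in each CT0 library, by genotype, with the group mean as a line and EpiRE replicate 3 as an open diamond. The repressor and output list is 4.25 to 4.58 in 3 EpiRE libraries and 3.37 in the diamond, the S phase list is 3.22 to 3.76 in BRE, and the G2 and M list spans 1.57 to 3.63 in BRE.

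Markers of other cells and of the position of Arntl were read beside these results. The summed level of 10 Langerhans and myeloid genes was 144 to 205 RPKM in BRE and 209 to 383 in WT. RERE (178 to 331) and EpiRE (140 to 314) overlapped BRE. In BRE against WT, 0 of 8 tested genes were called, beside 0.318% over all genes tested, with a median of -0.54. The sum of 7 T cell genes was 75.6 to 92.4 in BRE and 81.7 to 121 in WT. Fewer cells and less RNA per cell cannot be told apart in bulk tissue. The 7 fibroblast genes summed to 16.3 to 28.7 RPKM in BRE and 14.2 to 15.1 in WT, of which Sparc made up most, while Col1a1 (0.61 RPKM), Col1a2 (0.26), Dcn (0.77) and Pdgfra (0.019) were near 0 on average over the 16 libraries. The part of these cells in the results was not tested. Of 98 tested neighbours within 10 Mb of the Arntl start on chromosome 7, 0 were called between BRE and WT (median -0.01), and Calcb alone was called between EpiRE and BRE. These counts are near the shares over all genes tested, 0.318% and 0.873%.

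A further question was whether the CT0 differences stand for the whole day. In a fit of all 96 libraries, the difference from WT at CT0 was set against its mean over the other 5 times. That mean can hold differences of both signs, so a change from it does not make a difference particular to CT0. For BRE, 136 of 11028 genes (1.23%) differed, 116 (1.05%) with a higher and 20 (0.181%) with a lower value at CT0 than at the other times, and with median-of-ratios scaling the split was 91 and 46. The output factors Dbp and Tef and the repressors Per2 and Per3 had the largest changes among the named genes. Tef in BRE was above WT by 1.14 at CT0 and differed by -1.02 on average at the other times, a change of 2.16 ± 0.25 (adjusted p = 5.33e-09). Dbp differed by 0.90 at CT0 and -2.78 at the other times (3.68 ± 0.50, adjusted p = 8.53e-07), and Per3 by 0.08 and -2.32 (2.41 ± 0.33, adjusted p = 8.53e-07). All 3 had missed the threshold at CT0, and at CT12 WT stood at 6.17 for Tef where BRE stood at 4.39. Per2 differed by 2.95 at CT0 and -0.50 at the other times (3.45 ± 0.55), and Cry2 by 0.65 and -0.17 (0.81 ± 0.14). Of the named genes called between BRE and WT at CT0, only Arntl, Cry2, Per2 and Rflnb passed this test. The rest kept their direction on average at the other times. Among them, Cry1 differed by 1.69 at CT0 and 1.66 at the other times, Nr1d1 by -2.91 and -3.51, and Gsdmc by -2.6 and -2.48. A missed threshold does not show that such differences are equal.

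The activators of the loop followed no single direction in this comparison. Npas2 in BRE was above WT by 0.63 at CT0 and by 2.25 at the other times (-1.62 ± 0.28, adjusted p = 0.000214), so CT0 was when the genotypes were closest. Arntl in BRE was below WT by -0.83 at CT0 and above it by 0.17 on average at the other times (-1.0 ± 0.18, adjusted p = 0.000308). Its difference ran from -0.79 to 1.06 at those times, so the lower level was not confined to CT0. Arntl2 (0.58 ± 0.16) completed the activators that passed, 1 upward and 2 downward of 6, and Hlf (0.70 ± 0.15) the repressors and output factors, 6 of 12 and all upward. Over all genes tested, 1.05% passed upward and 0.181% downward. Arntl2 missed the threshold in 10 alternatives, median-of-ratios scaling among them (limma adjusted p up to 0.237).

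Replication genes were among the rest. In the S phase list 9 of 20 tested genes passed, all with a higher BRE minus WT difference at CT0 than at other times. Over all genes tested, 1.05% passed upward and 0.181% downward. The 9 were Mcm2, Mcm3, Mcm4, Mcm5, Mcm6, Mcm7, Gins2, Prim1 and Cdt1, and the list median was 0.73 beside 0.04 over all genes. Mcm6 in BRE was above WT by 0.46 at CT0 and differed by -0.47 at the other times (0.94 ± 0.19, adjusted p = 0.00275). E2f1, a transcription factor of S phase entry, differed by 1.01 and -0.59 (1.60 ± 0.29), Prim1, the primase, by 0.36 and -0.33 (0.69 ± 0.13), Tonsl by 0.96 and -0.47 (1.43 ± 0.25), Slf2, which acts in the repair of replicating DNA, by 0.31 and -0.20 (0.50 ± 0.09), and Mthfd1l of mitochondrial folate metabolism by 1.37 and -0.77 (2.14 ± 0.35). At CT0 itself the BRE minus WT difference passed for none of the first 5, and Mthfd1l (mean -0.11) lay below the minimum level. None of the 21 G2 and M genes passed, with a median of -0.71. Without WT replicates 2 and 3 the 136 genes became 46 and 62, without BRE replicates 2 and 3 they became 79 and 69, and without WT replicate 4 they became 276. The named genes Tef, Dbp, Per3, Per2, Npas2, Arntl, Cry2, Hlf, Mcm6, E2f1, Prim1, Tonsl, Slf2 and Mthfd1l passed in each alternative run for them, and Tonsl and Mthfd1l were not tested at the minimum of 2.

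**Figure D5:**
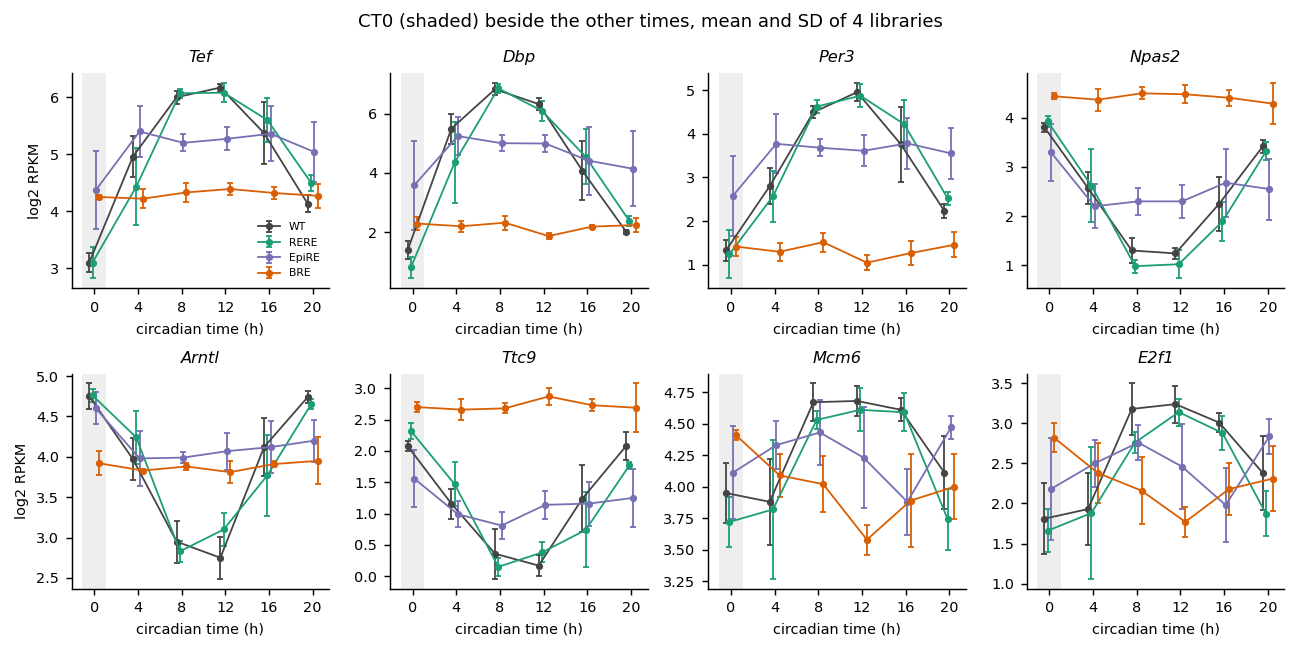
Mean level (log2 RPKM, with the SD of 4 libraries) of 8 genes at the 6 circadian times in WT, RERE, EpiRE and BRE, with CT0 shaded. BRE stays between 4.22 and 4.39 for Tef at all times while WT rises from 3.10 at CT0 to 6.17 at CT12, and BRE lies closest to WT for Npas2 at CT0.

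For EpiRE, 5 of 11028 genes (0.0453%) differed in this way, 3 upward (0.0272%) and 2 downward (0.0181%): Tef (1.26 at CT0 and -0.07 at the other times, a change of 1.33 ± 0.25, adjusted p = 0.00885), Dbp (2.19 and -0.19, 2.38 ± 0.50, adjusted p = 0.0228), the chromatin kinase gene Tlk2 (0.31 and -0.09, 0.40 ± 0.08), the transporter Magt1 (-0.29 and 0.06, -0.35 ± 0.08) and an unnamed gene, 5830416I19Rik. Without EpiRE replicate 3 there were 111 (1.01%), with Tef at 1.67 ± 0.24 and Dbp at 3.13 ± 0.47, without EpiRE replicate 2 or WT replicate 3 there were 17, and without EpiRE replicate 1 or 4 or WT replicate 1 or 2 there were 1 or 2. Tef missed the threshold without EpiRE replicate 4 (adjusted p = 0.0529) and Dbp without EpiRE replicates 1, 2 or 4 or WT replicates 1 or 2 and by limma-voom. Tlk2 missed it without WT replicate 1 or EpiRE replicate 1 (adjusted p up to 0.329), and Magt1 in 6 alternatives, median-of-ratios scaling among them (adjusted p up to 0.212). At the other times taken singly, EpiRE minus WT ran from -0.89 to 0.91 for Tef and from -1.82 to 2.13 for Dbp. The Dbp excess at CT0 was thus nearly matched at another time. For RERE, 0 genes (0%) differed, and with no minimum level 2 did.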

How the data were processed

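PolyA RNA of back-skin epidermis was sequenced in 96 libraries, of which the 16 at CT0 were compared here. Per the submitters' processing notes, the authors used the mm10 genome with featureCounts 1.6.0, HISAT2 2.2.1, SAMtools 1.3.1, Trimmomatic 0.36 and edgeR, with neither roles nor order stated. Whether molecular identifiers and strand entered the counting has no statement in the sources used here, so reads of paralogs, overlapping genes and antisense partners may be divided in untraced ways. The deposited values per library, made by the authors, are log2 RPKM in 4 tables of 22497 genes, 1 per genotype, whose column headers give CT and replicate. A further 96 deposited columns of values per library match no label and were not used.

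Whole reads were recovered for 22477 genes (99.91%), with 100% of their values within 0.1 of a whole read at a prior of 0.25 reads. They gave the depth and the input of limma-voom. Differences were tested with limma 3.58.1 in R 4.3.3 (empirical Bayes with a mean trend) on the log2 values of the 16 libraries together, for genes with a mean of at least 0, with Benjamini-Hochberg adjustment over all genes tested, called under 0.05. All tests of differences were two-sided. CT0 was set against the other times in a fit of 24 groups. On simulated data for BRE against WT (10996 genes, 200 changed), 92% of log2 changes of 1 and 45% of changes of 0.5 were recovered, and 2.8% of calls were false. The simulation used independent normal noise with the same spread in all genotypes. The real spreads differ between genotypes, so these shares need not hold for the data.

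Alternatives were no minimum level, a minimum of 2, median-of-ratios scaling, limma-voom, the replicate number as a block, the spread of all 96 libraries, the 2 genotypes alone, and each library left out. Same-numbered libraries of RERE and EpiRE deviated together (correlations of 0.408, 0.113, 0.364 and 0.500 for replicates 1 to 4), so the blocked value is given beside that pair. This pairing is read from the data, since the labels give only numbers.

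Named genes are Arntl, members of the clock lists, up to 10 higher and 10 lower called genes per pair by size of difference with a mean of at least 2 and an established symbol, the 15 smallest p-values of the F test, up to 4 members per other list and the 10 smallest p-values of each comparison with other times. Of these, 1 gene is not reported here by name, was left out of its list, and stays in the counts over all genes. The comparison, the 35 gene lists and these choices were made with earlier results of these data known. Coordinates are from GENCODE for mm10 (22371 of 22497 genes matched) and promoters from RefSeq GRCm38.p6.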

Additional observations from a re-analysis of the deposited data

Results flagged for a closer look

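In groups of 4 libraries, a value was singled out when its gap to the nearest other value took up more than 0.829 of the group's range, which chance gives in about 5% of groups. Among 308 groups (77 named genes in 4 genotypes) 16 met this, close to that share. EpiRE replicate 3 accounts for 6 of the 16, with Npas2 at 4.17, Per3 at 1.20, Cry1 at 4.00, Dbp at 1.34, Lockd at 2.84 and Gins2 at 2.33, each compared with the other EpiRE libraries. In EpiRE replicate 2 Fdps stood at 6.39. In BRE, Per2 stood at 2.82 in replicate 1, Tef at 4.21 and the hormone gene Pyy at 1.39 in replicate 3, and Tonsl at 1.91 in replicate 4. In RERE, Glul stood at 5.25 in replicate 2 and Mcm2 at 2.61 in replicate 4. In WT, Mthfd1l stood at -1.85 in replicate 2, Il22ra2 at 4.94 in replicate 3 and Ttk at 3.76 in replicate 4. The size of 1 BRE library, 12.6 M reads in replicate 4, stood apart from the other BRE libraries as well, and its part in the results was not tested beyond the counts without it.

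The difference from WT at CT0 departed from its mean over the other times, by the test of the change itself, for these named genes. In BRE the change was upward for Dbp (3.68), Per2 (3.45), Per3 (2.41), Tef (2.16), Mthfd1l (2.14), E2f1 (1.60), Tonsl (1.43), Gins2 (1.29), Mcm2 (1.26), Mcm6 (0.94), Mcm4 (0.83), Cry2 (0.81), Ccnd2 (0.80), Rflnb (0.77), Hlf (0.70), Prim1 (0.69), Arntl2 (0.58), Slf2 (0.50) and the antioxidant enzyme gene Sod2 (0.35). It was downward for Npas2 (-1.62), Ttc9 (-1.11), Arntl (-1.0), Acadl of fatty acid oxidation (-0.37), the chaperone gene Canx (-0.35) and Pfkp of glycolysis (-0.33). In EpiRE it was upward for Dbp (2.38), Tef (1.33) and Tlk2 (0.40) and downward for Magt1 (-0.35). Of the 25 named genes in BRE, 9 missed the threshold in at least 1 alternative. Among them were Arntl2 (10 alternatives), Acadl (7), Pfkp (4), Rflnb (4), Canx (3) and Ccnd2 (3). All 4 named genes in EpiRE missed it in at least 1.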

How the results depend on the processing

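For 122 results of single named genes, 2733 checks were made, of which 2307 kept direction and call, 426 lost the call and 0 reversed. In 60 of the 122 the call held in all checks run. Taking the spread from all 96 libraries raised the counts of called genes to 557 in the F test, 193 for BRE against WT, 456 for EpiRE against BRE, 254 for RERE against EpiRE, 476 for RERE against BRE and 5 for EpiRE against WT. That fit has more residual degrees of freedom by its construction. Fitting only the 2 genotypes gave 72 genes for BRE against WT, 50 for EpiRE against BRE and 0 for RERE against EpiRE. A minimum level of 2 left 31 genes in the F test. No minimum left 1 gene for RERE against EpiRE and gave 2 for RERE against WT at CT0 against the other times, and limma-voom gave 3 for EpiRE in that comparison. The cause of these changes was not tested.

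With the replicate number as a block, RERE against EpiRE went from 3 genes to 1, and no other count moved by over 1.5 times (62 in the F test, 35 for BRE against WT, 129 for EpiRE against BRE, 50 for RERE against BRE). Same-numbered libraries of the other 5 pairs had correlations of both signs or negative ones, from -0.293 to 0.400, and share only a number.

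Leaving out 1 library gave 26 to 69 genes in the F test, 0 to 9 for EpiRE against WT, 17 to 54 for BRE against WT, 39 to 115 for EpiRE against BRE, 1 to 12 for RERE against EpiRE, 22 to 88 for RERE against BRE and 0 for RERE against WT. For CT0 against the other times it gave 0 to 4 for RERE, 1 to 111 for EpiRE and 46 to 276 for BRE. With 4 libraries a group, 45% of simulated log2 changes of 0.5 were recovered for BRE against WT, so smaller changes were mostly out of reach there. That simulation gave all genotypes the same spread, which the real libraries do not have.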
